A study of Mus musculus with 17 samples.

Results

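The 9 E8.5 whole mouse embryos of a 17-embryo RNA-sequencing series were arranged by their level of Hbb-y, the embryonic beta-like globin, so that differences in developmental progress among embryos of the same nominal age could be described gene by gene. The embryos were ordered by log2(TPM + 1) of Hbb-y with both genotypes pooled, where TPM is transcript abundance scaled to a fixed total per library. Genes were selected by the rule that TPM reached 1 in at least 4 of the 9 embryos, which kept 12553 of the 41709 gene symbols in the table after 10 globin genes were left out. Each gene was then described by Spearman's rho with the Hbb-y order. Because that order and those correlations come from the same 9 libraries, they are given as a description over n = 9 embryos and carry no p-value.

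The ordered embryos were 4 Myo10+/+ controls (MYOX_WT) and 5 homozygotes for the m1J allele of Myo10 (MYOX_MUT), all C57BL/6J, collected at E8.5 from crosses between heterozygotes. Myo10 encodes myosin X, a motor protein that moves along actin and gathers at filopodial tips. The other 8 libraries were E9.5 embryos on the same strain background, 4 controls (Disp1WT) and 4 carrying a CS and an INDEL allele of Disp1 (Disp1CSINDEL), and they served as embryos that the order did not use. Each library held 1 whole embryo, and which embryos were littermates is not stated, so every difference is a difference between single embryos. Myo10 stood between 19.9 and 33.9 TPM in the MYOX_WT embryos and between 2.16 and 4.35 TPM in the MYOX_MUT embryos, which matches their labels.

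Around this age the mouse embryo passes from late gastrulation to early organ formation within hours, and litters hold embryos of different somite number. The first red cells arise in the blood islands of the yolk sac, enter the embryo once the heart beats, and carry embryonic globins such as Hbb-y, Hbb-bh1 and Hba-x, with Hbb-y replacing Hbb-bh1 as these cells mature. Over the same interval the heart tube builds sarcomeres, neural crest leaves the neural folds, pluripotency factors are extinguished and the primitive streak gives way to the tail bud. In whole embryos, fewer cells of a type and less RNA per cell cannot be told apart.

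Hbb-y spanned a wide range. From lowest to highest it stood at 1.02 TPM in MYOX_MUT 1, 6.42 in MYOX_WT 3, 6.79 in MYOX_MUT 5, 10.7 in MYOX_WT 2, 16.6 in MYOX_WT 4, 39.2 in MYOX_MUT 3, 95.5 in MYOX_WT 1, 354 in MYOX_MUT 2 and 465 in MYOX_MUT 4. This sequence of embryos is used for every run of 9 values below. Hba-x, the embryonic alpha-like globin, ran from 17.5 to 1186 TPM with a rho of 0.92. Hbb-bh1, the beta-like globin of the earliest red cells, ran from 48.9 to 3016 TPM with a rho of 0.83. Both peaked in MYOX_MUT 2 rather than MYOX_MUT 4, so the ratio of Hbb-y to Hbb-bh1 was largest in the embryo at the top of the order.

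The adult globins did not follow the order as closely. Hba-a1 had a rho of 0.52, whereas Hbb-bs, an adult beta globin, had a rho of -0.10 and its highest level, 301 TPM, in MYOX_MUT 1, the embryo lowest in Hbb-y. Hbb-bt, the other adult beta globin, was likewise highest there at 60.6 TPM, against 22.6 TPM in MYOX_MUT 2 and at most 15.7 TPM in the other 7. The part that maternal blood RNA played in these values was not tested. None of the 10 maternal leukocyte markers reached the filter, Ngp and Elane were listed at 0 in all 9 libraries, and the summed TPM of the list was 2.89 in MYOX_MUT 1, 13.4 in MYOX_MUT 2 and 0.167 to 3.78 in the other 7.

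**Figure D1:**
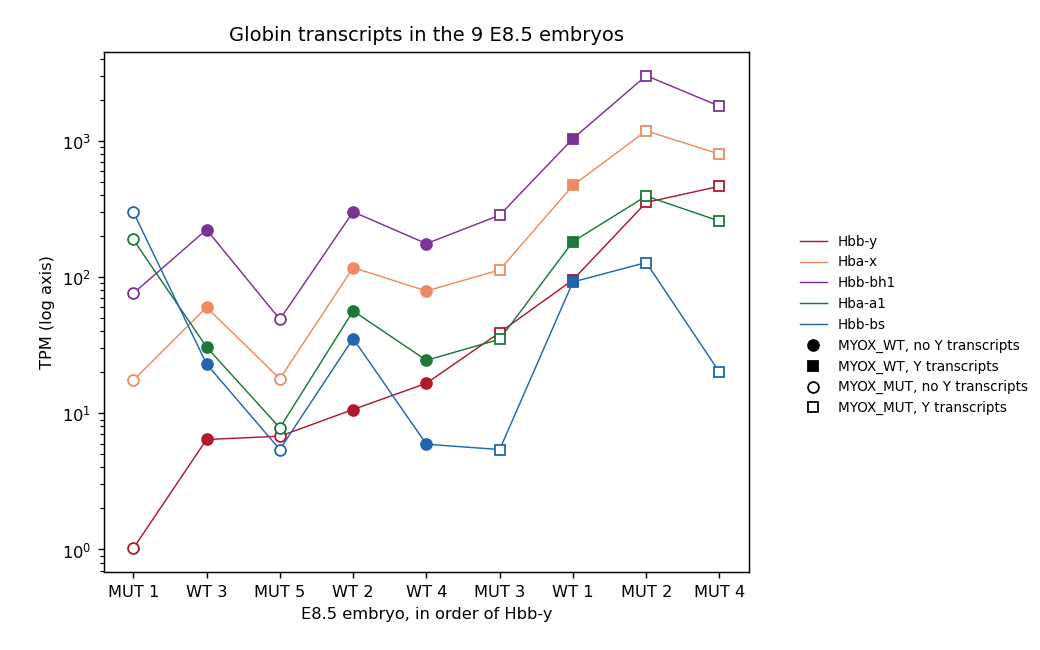
TPM (log axis) of 5 globin genes in the 9 E8.5 embryos, arranged by Hbb-y; circles mark embryos without and squares embryos with Y-linked transcripts, and filled symbols mark MYOX_WT. Hbb-y, Hba-x and Hbb-bh1 are highest in MYOX_WT 1, MYOX_MUT 2 and MYOX_MUT 4, while Hbb-bs is highest in MYOX_MUT 1, the embryo lowest in Hbb-y.

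The promoters of 3 genes at the centre of the description are shown from RefSeq on GRCm38.p6, a build other than the authors' GRCm39. Each runs 5′ to 3′ from 250 bases before the annotated start to 50 bases after it. They are the promoter of Hbb-y (chr7:103853158-103853457, minus strand), which sets the order, that of Alas2 (chrX:150547167-150547466, plus strand), which encodes the first enzyme of haem synthesis in red cells, and that of Pou5f1 (chr17:35505782-35506081, plus strand), the pluripotency factor that ran most steeply against the order. Capitals mark every match to the letters AGATAA (bound by GATA factors), TATAAA or CCAAT on either strand, with no overlap among them in these 3 sequences.
Hbb-y: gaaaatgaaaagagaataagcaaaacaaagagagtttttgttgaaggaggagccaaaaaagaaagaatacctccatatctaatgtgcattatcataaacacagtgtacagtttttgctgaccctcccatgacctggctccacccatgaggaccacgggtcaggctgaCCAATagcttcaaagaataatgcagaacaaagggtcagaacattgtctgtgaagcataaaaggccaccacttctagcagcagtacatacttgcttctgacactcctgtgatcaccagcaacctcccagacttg
Alas2: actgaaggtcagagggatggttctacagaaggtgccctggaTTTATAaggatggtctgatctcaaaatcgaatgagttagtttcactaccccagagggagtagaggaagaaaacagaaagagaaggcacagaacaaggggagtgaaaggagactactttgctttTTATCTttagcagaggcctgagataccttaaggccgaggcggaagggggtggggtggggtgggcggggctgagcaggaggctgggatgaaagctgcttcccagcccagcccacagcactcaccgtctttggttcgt
Pou5f1: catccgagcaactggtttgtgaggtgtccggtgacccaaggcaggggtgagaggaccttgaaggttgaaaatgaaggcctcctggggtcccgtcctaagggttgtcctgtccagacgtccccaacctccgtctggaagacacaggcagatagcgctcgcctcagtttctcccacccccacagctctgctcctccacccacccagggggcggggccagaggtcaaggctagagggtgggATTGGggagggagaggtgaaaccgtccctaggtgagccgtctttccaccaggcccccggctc
The Hbb-y window held 1 CCAAT match and the Pou5f1 window shown 1 CCAAT match on the opposite strand. RefSeq lists another Pou5f1 window (chr17:35508557-35508856, plus strand), not shown here, with 1 CCAAT match on the given strand. The Alas2 window held 1 AGATAA match and 1 TATAAA match, both on the opposite strand.

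Across genes, AGATAA was present in 25 of 195 promoters of genes with a rho of at least 0.8 (12.8%) and in 9 of 155 promoters of genes with a rho of at most -0.8 (5.81%). The share was 6.17% over the 12405 promoters of all ranked genes and 11.2% over all 32851 promoters in the RefSeq table. Among the 14 promoters of the primitive erythroid list it was 35.7% (5 promoters). These are counts of letters and say nothing about occupancy.

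In all, 212 genes had a rho of at least 0.8 (1.69% of those ranked) and 184 had a rho of at most -0.8 (1.47%), against a median of -0.10 over all genes. They are called upward and downward genes here. Just inside the upward threshold lay 23 genes at 0.80, Bnip3 the most abundant, and just outside it 23 at 0.78, Anxa6 the most abundant. Just inside the downward threshold lay 30 genes at -0.80, Lin28a the most abundant, and just outside it 44 at -0.78, with Rpl7a the most abundant. Scaling the libraries by the median of gene-wise ratios in place of TPM left the embryo order as it was. It gave 596 upward (4.75%) and 608 downward genes (4.84%), with a median of -0.02. Of the TPM-based sets, 174 of the 212 and 132 of the 184 were past the threshold on that scale too, and none changed sign. Principal components of the ranked genes, globins left out, were taken on log2 values after median-of-ratios scaling. The sign of each was set so that its Pearson's r with Hbb-y was positive. The first held 34.0% of the variance and had a rho of 0.95 with the order. The second held 28.7% and had a rho of -0.02.

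The lowest embryo and the 2 highest were MYOX_MUT, and the 4 MYOX_WT embryos lay between them. Mean log2(TPM + 1) of Hbb-y was 4.29 ± 1.62 (SD, n = 4) in MYOX_WT and 5.33 ± 3.41 (SD, n = 5) in MYOX_MUT embryos, a difference of 1.04 that an exact two-sided permutation test did not separate from 0 (p = 0.619). The smallest p this design allows is 0.0159. The sex of the embryos, read from Y-linked transcripts, did move with the order. Ddx3y, a Y-linked RNA helicase, stood between 12.8 and 19.0 TPM in the 4 embryos highest in Hbb-y and at 0.114 TPM or less in the other 5, while Xist, the RNA that coats the inactive X, stood at 1.27 TPM or less in the former and between 9.37 and 20.9 TPM in the latter. The lowest Hbb-y among embryos with Y transcripts was 39.2 TPM and the highest among those without was 16.6 TPM. Sex and the upper or lower part of the order therefore cannot be told apart. As an alternative added after the values were seen, every gene was also centred within the embryos with and within those without Y transcripts. The list median of rho then obtained is given beside each main gene group as its median within sex. It is on TPM unless the other scale is named.

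Library content was also compared along the order. Structural RNAs such as the RNase P RNA took 29.7% to 44.5% of TPM (rho 0.17), replication-dependent histone genes took 6.79% to 8.66% (rho -0.22), and transcripts of the mitochondrial genome took 2.38% to 4.26% (rho -0.67). The number of genes at 1 TPM or more, 11926 to 12957, had a rho of 0.00. Prl8a2, a decidual prolactin-family gene of the mother's side, stood at 146 TPM in MYOX_MUT 2 and at 9.62 TPM or less in the other 8. The summed TPM of the 14 decidua and trophoblast genes was 270 in MYOX_MUT 2, 51.5 in MYOX_MUT 1 and 8.64 to 28.0 in the other 7. The embryos carrying most of this RNA thus stood next to highest and lowest in the order, and its part in the other values was not tested. Yolk sac endoderm genes had no upward or downward member of 19 ranked, with a median rho of -0.07. Afp, a secreted protein of that endoderm, ranged from 54.5 TPM in MYOX_MUT 4 to 241 TPM in MYOX_WT 1. The summed TPM of the yolk sac list ranged from 988 to 3392 and had a rho of -0.13 with Hbb-y.

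**Figure D2:**
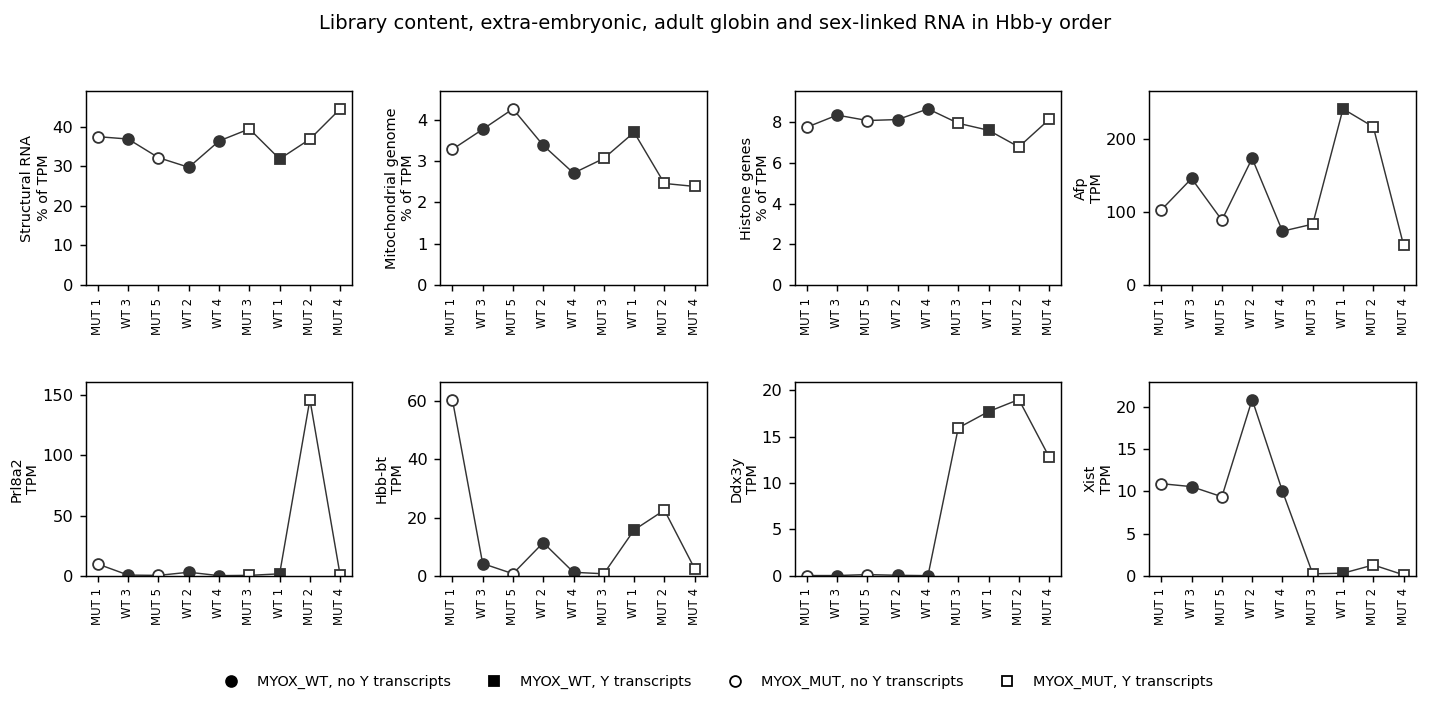
Shares of TPM and TPM of single genes in the 9 E8.5 embryos, arranged by Hbb-y; circles mark embryos without and squares embryos with Y-linked transcripts, and filled symbols mark MYOX_WT. Prl8a2 stands out in MYOX_MUT 2 and Hbb-bt in MYOX_MUT 1, and Ddx3y and Xist change between the fifth and the next embryo.

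Red-cell genes other than globins were higher toward the top of the order. Of the 13 ranked members of the primitive erythroid list, all had a positive rho (0.28 to 0.88, median 0.65, and 0.38 within sex). Of these, 2 passed 0.8, against 1.69% of all genes. Slc4a1, the anion exchanger of the red-cell membrane, stood in order at 0.286, 0.199, 0.176, 0.265, 0.454, 1.36, 4.07, 9.66 and 10.5 TPM (rho 0.88). It was below 0.5 TPM in the first 5 embryos and climbed in each of the next 4.

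The factors that direct red-cell development followed the order more loosely. Gata1 ranged from 0.271 to 5.66 TPM (rho 0.58) and Klf1, an activator of globin genes, from 0.603 to 13.1 TPM (rho 0.72). Alas2 stood at 4.45, 1.69, 0.412, 3.56, 1.35, 1.03, 7.25, 16.1 and 9.17 TPM (rho 0.53). MYOX_MUT 1 thus had the 4th highest Alas2 while lowest for Hbb-y, the same embryo that held the most adult beta globin. The remaining 5 of the 18 list members, among them Epb42, Hemgn, Ermap and Rhag, did not reach the filter. Since erythroid genes and Hbb-y mark the same cells, their shared direction is a check of the order and not a separate finding.

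Endothelial genes split. Of 14 ranked members, 3 were upward and none downward on TPM (median rho 0.58), and 8 were upward and 1 downward after median-of-ratios scaling (median 0.82). Of all genes 1.69% were upward on TPM and 4.75% on the other scale. The median within sex was 0.24 on TPM and 0.51 after median-of-ratios scaling. Cldn5, a tight-junction claudin, stood at 5.69, 6.93, 7.0, 9.81, 11.1, 9.85, 10.9, 19.1 and 12.4 TPM (rho 0.93). Cdh5, the endothelial cadherin, ran from 11.8 to 35.2 TPM (rho 0.82) and Emcn, an endothelial sialomucin, from 0.341 to 2.32 TPM (rho 0.88). In contrast Kdr, the VEGF receptor already present on blood and vessel progenitors, ranged only from 23.5 to 40.7 TPM with a rho of 0.03, and Etv2, the early inducer of that lineage, had a rho of -0.32. Several endothelial genes peaked in MYOX_MUT 2, the embryo with the decidual transcript.

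The contractile apparatus of the heart was the list with the most upward members. Of 15 ranked genes, 11 were upward and none downward on TPM (median rho 0.83), against 1.69% of all genes. After median-of-ratios scaling 13 were upward, against 4.75% of all genes. The median within sex was 0.23 on TPM and 0.30 after median-of-ratios scaling. Myl2, the ventricular myosin light chain, stood in order at 2.18, 1.17, 1.29, 3.46, 7.56, 8.79, 13.2, 16.1 and 18.1 TPM (rho 0.95). From MYOX_WT 3 onward each embryo exceeded the one before it. Its log2(TPM + 1) changed by 0.42 for each unit of log2(TPM + 1) of Hbb-y.

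Other sarcomere genes showed the same shape at different levels. Tnni3, the cardiac troponin I, stood at 0.495, 0.236, 0.737, 0.849, 2.97, 2.92, 4.68, 4.44 and 4.84 TPM (rho 0.95). Myh7, the slow myosin heavy chain, stood at 18.2, 7.37, 10.1, 21.7, 35.7, 42.3, 70.0, 52.2 and 51.8 TPM (rho 0.88). Actc1, cardiac actin, ranged from 80.0 to 536 TPM (rho 0.85), and Myl7, the atrial light chain, from 179 to 647 TPM (rho 0.83). For Myh7, Actc1 and Myl7 the lowest embryo was MYOX_WT 3 and the highest MYOX_WT 1, so the last 2 embryos of the order did not exceed MYOX_WT 1. The 3 upward members of the myotome list, Myl1 (rho 0.90), Actc1 and Tnnc1 (rho 0.82), are sarcomere genes that the heart also uses. The muscle determination factors Myf5, Myog and Myod1 did not reach the filter.

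Heart progenitor factors did not share this direction. None of 12 was upward or downward, and the median rho was -0.27 (-0.29 within sex). Nkx2-5, the homeodomain factor of early cardiac cells, ranged from 10.9 to 29.9 TPM with a rho of -0.30, Isl1, a second heart field factor, had a rho of -0.53, and Gata6 had a rho of -0.57. Smyd1, a methyltransferase needed for sarcomere assembly, was the exception with a rho of 0.75 (5.00 to 17.3 TPM). Transcripts of the contractile apparatus and of the factors that specify the heart thus ranked differently along the order.

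Neural crest genes formed a second upward group. Of 11 ranked members, 6 were upward and none downward on TPM (median rho 0.85), against 1.69% of all genes upward. After median-of-ratios scaling 6 were upward (median 0.83), against 4.75% of all genes. The median within sex was 0.13 on TPM and 0.40 after median-of-ratios scaling. Sox10, the factor of migrating crest and later of glia and pigment cells, stood in order at 0.511, 0.533, 0.368, 1.36, 5.70, 6.28, 13.4, 9.51 and 10.2 TPM (rho 0.90). The first 3 embryos had less than 0.6 TPM and the last 5 had 5.70 TPM or more, with MYOX_WT 2 between them. Tfap2b ran from 0.103 to 2.75 TPM (rho 0.90), Ets1, a factor of cranial crest and endothelium, from 8.94 to 20.4 TPM (rho 0.92), and Ednrb, the endothelin receptor of crest, from 3.47 to 10.3 TPM (rho 0.88). Erbb3, a receptor of the Schwann cell branch of the crest, was upward too (rho 0.87). Foxd3, Snai2 and Tfap2a did not follow the order, with a rho of 0.08, 0.05 and -0.25.

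In the extracellular matrix list 3 of 17 members were upward and none downward (median rho 0.48, and 0.13 within sex). After median-of-ratios scaling 7 were upward, where the share over all genes was 4.75%, against 1.69% on TPM. Col3a1, a fibrillar collagen, stood at 2.85, 2.76, 2.13, 5.67, 8.11, 9.58, 12.4, 18.8 and 17.5 TPM (rho 0.92). Lum, a proteoglycan of collagen fibrils, ran from 1.70 to 17.0 TPM (rho 0.90) and Col11a1 from 1.05 to 3.33 TPM (rho 0.85). Col1a1, another fibrillar collagen, had a rho of 0.72 (7.98 to 31.0 TPM). Col4a1 and Col4a2, the basement membrane collagens, both had a rho of -0.08, and Fn1, fibronectin, one of -0.30. Alx4, a frontonasal mesenchyme factor, was the only upward member of 13 ranked in the craniofacial list (0.927 to 3.23 TPM, rho 0.85).

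Within the neural tube, genes of regional and dorsal identity separated in both directions. Of 12 neural progenitor genes 4 were upward and 1 downward (median rho 0.29). Of 11 midbrain and hindbrain genes 2 were upward and 1 downward (median 0.32). Over all genes 1.69% were upward and 1.47% downward. The medians of both lists turned negative within sex on TPM, to -0.14 and -0.33. That of the forebrain and eye list, with no member of 7 past the threshold, turned from 0.43 to -0.17. After median-of-ratios scaling the medians within sex were 0.008, -0.23 and -0.08, in the same sequence. Zic1, a dorsal neural factor, stood at 0.104, 0.162, 0.139, 0.365, 1.42, 1.32, 2.62, 1.55 and 3.70 TPM (rho 0.95). Msx3, of the dorsal neural tube, ran from 0.525 to 6.03 TPM (rho 0.88), and the upward progenitor genes Hes5 (3.51 to 17.1 TPM) and Nes (15.8 to 32.4 TPM) each had a rho of 0.83. En2, a midbrain and anterior hindbrain factor, stood at 0.364, 0.245, 0.355, 0.532, 2.71, 3.07, 6.83, 3.79 and 3.88 TPM (rho 0.90), and Pax8 had a rho of 0.85. The pan-neural factor Sox2 ranged from 36.9 to 67.2 TPM with a rho of -0.22. Gbx2, which positions the boundary between midbrain and hindbrain and is also expressed in the posterior epiblast, ran from 27.2 TPM in MYOX_MUT 5 to 9.43 TPM in MYOX_MUT 4 (rho -0.92). Of 5 ranked neuronal differentiation genes 1 was upward and 1 downward (median 0.03, and -0.47 within sex). Neurog2, a neurogenic factor, was upward at 0.386 to 1.47 TPM (rho 0.88), and Stmn2, a microtubule regulator of neurons, was downward at 3.99 to 7.51 TPM (rho -0.83). The other 12 of the 17 listed genes, among them Dcx and Neurod1, did not reach the filter.

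Pluripotency and epiblast genes formed the main downward group. Of 11 ranked members 8 were downward and none upward (median rho -0.85), against 1.47% of all genes. After median-of-ratios scaling 9 were downward (median -0.92), against 4.84% of all genes. The median within sex was -0.55 on TPM and -0.73 after median-of-ratios scaling. Pou5f1, the factor Oct4 whose promoter is shown above, stood in order at 62.9, 68.5, 89.4, 42.9, 17.3, 12.5, 10.8, 7.20 and 2.40 TPM (rho -0.93). From MYOX_MUT 5 onward each embryo had less than the one before it. Its log2(TPM + 1) changed by -0.56 for each unit of log2(TPM + 1) of Hbb-y, the largest negative slope among the downward genes.

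Other downward members of that list spanned a wide range of levels. Nanog stood at 4.43, 2.30, 3.98, 2.14, 0.266, 0.150, 0.418, 0.505 and 0.105 TPM (rho -0.83), with a gap between MYOX_WT 2 and MYOX_WT 4. Fgf5, a marker of primed epiblast, ran from 1.48 to 0.225 TPM (rho -0.98) and Utf1 from 2.32 to 0.420 TPM (rho -0.93), both near the filter. Dnmt3b, the de novo DNA methyltransferase of the epiblast, ran from 156 TPM in MYOX_MUT 1 to 47.9 TPM in MYOX_MUT 4 (rho -0.87). Lin28a, an RNA-binding protein of early embryonic cells, lay just past the threshold with 433 to 824 TPM. Tdgf1, the Nodal co-receptor, was the only member with a positive rho (0.08).

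**Figure D3:**
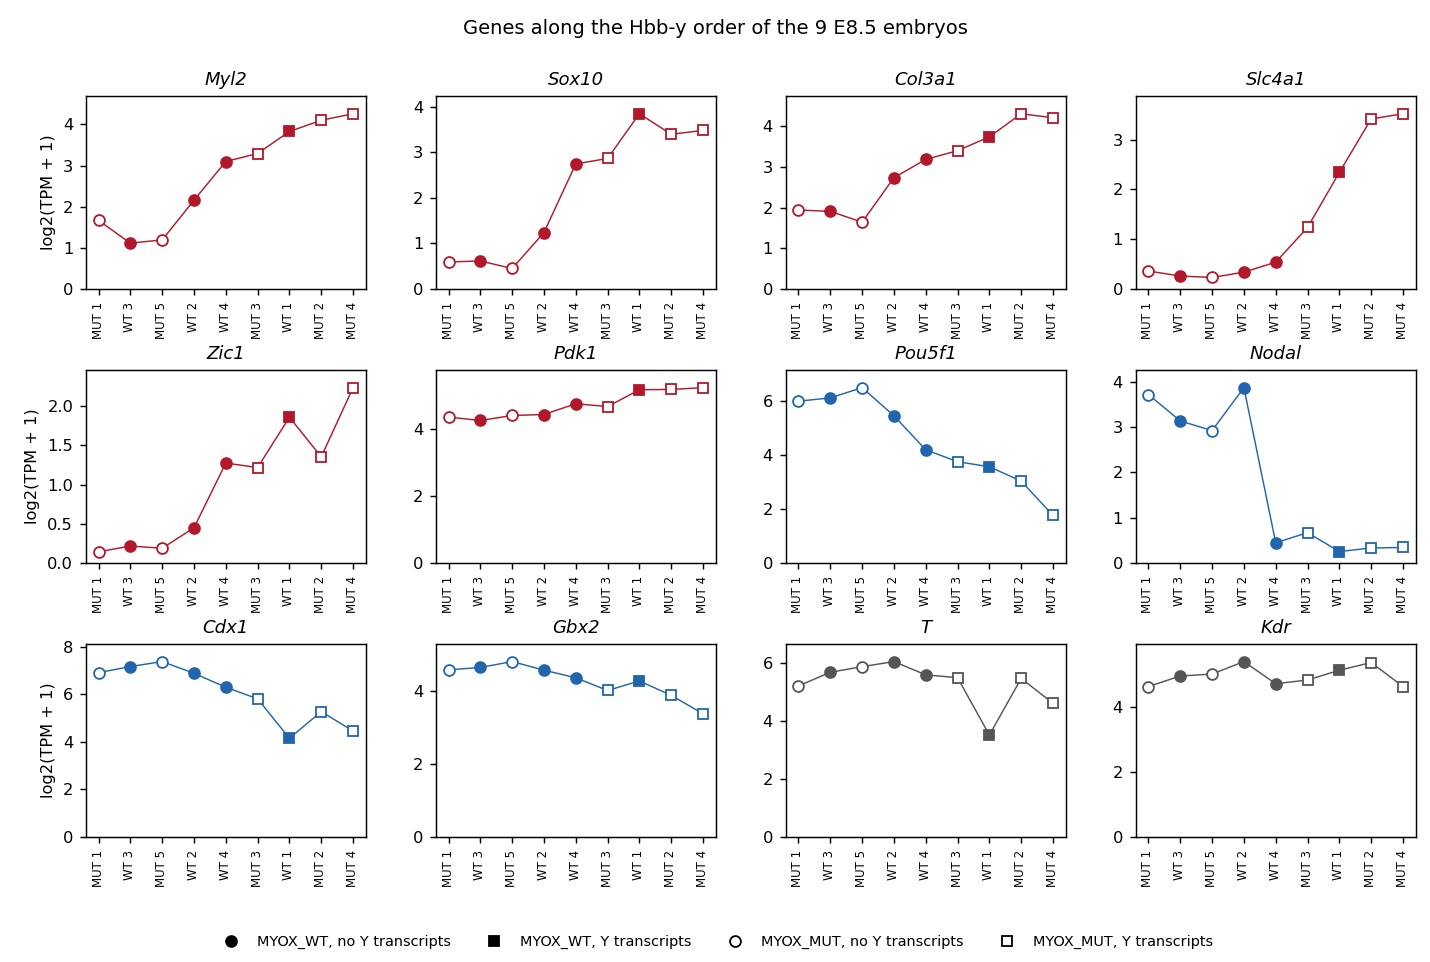
log2(TPM + 1) of 12 genes in the 9 E8.5 embryos, arranged by Hbb-y; red marks upward genes, blue downward genes and grey neither, with circles for embryos without and squares for embryos with Y-linked transcripts and filled symbols for MYOX_WT. Myl2, Sox10, Col3a1, Slc4a1, Zic1 and Pdk1 are upward and Pou5f1, Nodal, Cdx1 and Gbx2 downward, while T and Kdr are neither.

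Genes of left-right patterning and the node lay on the same side. Of 8 left-right genes 3 were downward (median rho -0.75, and -0.38 within sex). Of 10 node and notochord genes 1 was (median -0.49, and -0.36 within sex). Over all genes the downward share was 1.47%. After median-of-ratios scaling the medians of these lists within sex were -0.32 and -0.35. Nodal, the TGF-beta ligand expressed at the node and transiently in the left lateral plate, stood at 12.1, 7.76, 6.56, 13.6, 0.362, 0.590, 0.192, 0.257 and 0.268 TPM (rho -0.82). The first 4 embryos thus had 6.56 TPM or more and the other 5 had 0.590 TPM or less, with nothing between. Lefty1, the midline antagonist of Nodal, divided at the same place, with 6.95 to 12.3 TPM in the first 4 embryos and at most 0.0616 TPM in the rest, 2 of which are listed at 0 (rho -0.78).

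Their partners varied less abruptly. Dand5, the Nodal antagonist beside the node, ran from 3.77 to 0.807 TPM (rho -0.87), Pkd1l1, a component of the flow sensor at the node, from 1.83 to 0.417 TPM (rho -0.87), and Foxj1, the factor for motile cilia, from 2.05 to 0.340 TPM (rho -0.85). Shh, from the notochord and floor plate, had a rho of -0.50 (4.17 to 8.73 TPM). Of 11 Hedgehog target genes 1 was past the threshold, downward (1.47% of all genes were), with Ptch1 at -0.30.

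Streak and tail bud genes were lower toward the top with 1 embryo standing out. Of 13 ranked genes 3 were downward (median rho -0.50, and -0.03 within sex), against 1.47% of all genes. Cdx1, a caudal homeobox gene, stood in order at 119, 142, 164, 117, 77.4, 54.9, 16.7, 37.6 and 20.9 TPM (rho -0.88). Nkx1-2, of the caudal epiblast, stood at 63.9, 84.0, 107, 79.8, 61.7, 51.5, 14.3, 43.6 and 26.1 TPM (rho -0.83), and Sp5, a Wnt target, ran from 42.4 to 14.3 TPM (rho -0.83). T, or Brachyury, stood at 36, 50.3, 57.7, 65.3, 47.3, 44.1, 10.4, 43.3 and 23.4 TPM (rho -0.52). MYOX_WT 1 had the lowest Cdx1, Nkx1-2 and T of the 9, and also the lowest Msgn1 (4.26 TPM against 14 to 42.9) and Tbx6 (2.49 TPM against 5.09 to 17.0), the presomitic mesoderm factors. It also had the highest Sox10 and Myh7. Its summed TPM was likewise the highest for the forebrain and eye (66.9), midbrain and hindbrain (125) and neural crest (160) lists. Whether caudal tissue was missing from this embryo was not tested.

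Wnt8a, a ligand of the posterior epiblast outside these lists, divided where Nodal did, with 29.7, 26.8, 34.3, 28.6, 6.52, 6.44, 5.41, 4.70 and 1.32 TPM (rho -0.92). Presomitic mesoderm genes had 1 downward member of 10, against 1.47% of all genes (median rho -0.58, and 0.20 within sex). It was Mesp1, also a factor of early cardiac mesoderm (4.61 to 0.210 TPM, rho -0.82). Lfng, the Notch modifier of the segmentation clock, had a rho of 0.72. Aldh1a2, the main retinoic acid synthesising enzyme of the trunk mesoderm, stood at 105, 120, 142, 111, 86.1, 74.8, 37.7, 23.2 and 57.3 TPM (rho -0.83), while Crabp1, a retinoic acid binding protein of crest and hindbrain, ran from 231 to 514 TPM (rho 0.83).

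Hox genes did not move as a block. Among paralogues 1 to 5, 2 of 15 were downward and none was upward (median 0.05, and 0.23 within sex). The downward share over all genes was 1.47%. Hoxb1, among the earliest to be switched on, was downward (7.69 to 18.4 TPM, rho -0.82). Among paralogues 6 to 13 none of 14 ranked was past the threshold (median 0.23, and 0.44 within sex). Hoxc9 (0.288 to 3.97 TPM, rho 0.73) and Hoxa9 (0.376 to 8.83 TPM, rho 0.70) came nearest, and both were lowest in MYOX_MUT 1. The other 10 posterior genes did not reach the filter. Summed over all 24 listed, posterior Hox TPM was 49.9 in MYOX_WT 1 and 50.8 in MYOX_MUT 1, against 97.1 to 153 in the others.

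Of 12 genes listed for gut endoderm 1 was downward on TPM (median rho -0.62, and -0.46 within sex) and 6 after median-of-ratios scaling (median -0.75). Of all genes 1.47% were downward on TPM and 4.84% on the other scale. Of 12 ranked surface ectoderm and placode genes none was past the threshold (median 0.06, and -0.15 within sex). Cdh1, or E-cadherin, stood at 67.7, 57.9, 67.4, 58.8, 37.4, 37.0, 55.1, 35.2 and 23.8 TPM (rho -0.90). Spink1, a protease inhibitor of gut endoderm, ran from 408 TPM in MYOX_MUT 1 to 91.9 TPM in MYOX_MUT 4 (rho -0.78), and Epcam, an epithelial adhesion molecule, from 65.7 to 39.2 TPM (rho -0.77). Cdh1, Epcam and the keratins of this list are shared with surface ectoderm and extra-embryonic epithelium. Foxa1, more restricted to endoderm and midline, had a rho of -0.43.

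Among metabolic genes, Pdk1, which restrains entry of pyruvate into the mitochondrion, stood at 19.7, 18.3, 20.4, 20.8, 26.3, 24.7, 35.5, 35.7 and 37.1 TPM (rho 0.97). Of 17 glycolysis and hypoxia genes 5 were upward and none downward on TPM, against 1.69% of all genes upward. The 5 were Pdk1, Pgk1 (0.90), Hk1 (0.87), Tpi1 (0.85) and Bnip3. The list median rho was 0.53, 0.38 after median-of-ratios scaling and 0.15 within sex. Pgk1 had a rho of 0.63 and Tpi1 one of 0.55 on the second scale. Slc2a1, the main glucose transporter, had a rho of -0.70 (510 to 819 TPM), and Ldhb, the heart-type lactate dehydrogenase subunit, ran from 85.3 TPM in MYOX_MUT 5 to 17.9 TPM in MYOX_MUT 4 (rho -0.95). Of 15 mitochondrial genome transcripts 1 was downward, mt-Cytb (864 to 1671 TPM, rho -0.83), with a median rho of -0.53. The downward share over all genes was 1.47%. Mitotic genes had no member of 14 past the threshold, with a median of -0.31 on TPM and -0.13 after median-of-ratios scaling.

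**Figure D4:**
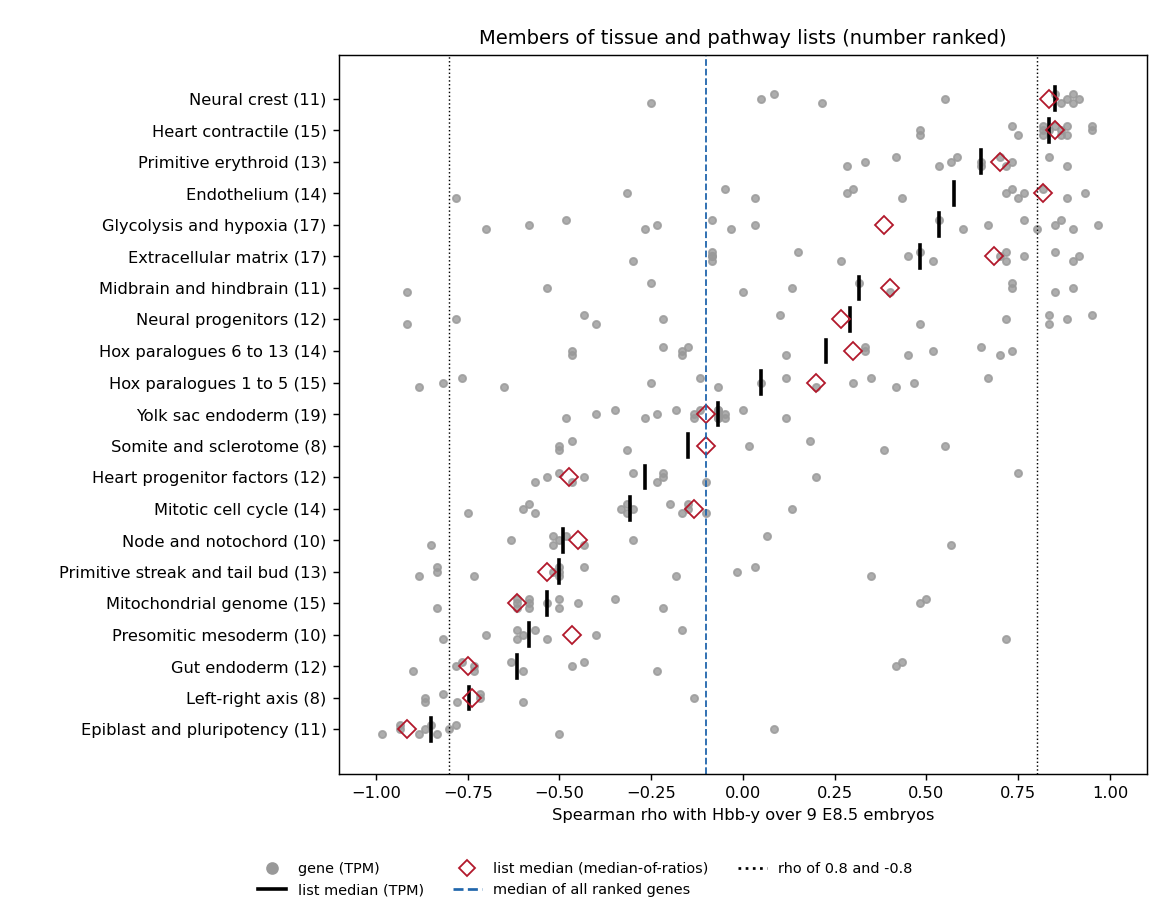
Spearman's rho with Hbb-y over the 9 E8.5 embryos for the ranked members of 21 lists (grey points), with the list median on TPM (black bar) and after median-of-ratios scaling (red diamond), the median of all ranked genes (blue dashed line) and the thresholds (dotted). Neural crest and heart contractile genes have medians of 0.85 and 0.83, and epiblast and pluripotency genes a median of -0.85.

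Outside the lists, the genes with the highest rho at a mean of at least 5 TPM were led, beside Pdk1, by Prelid2, Msrb3, Tmsb4x and Tmem123, all at 0.97. Tmsb4x, an actin-sequestering peptide, stood at 143, 141, 167, 176, 179, 185, 216, 207 and 233 TPM. Msrb3, a methionine sulfoxide reductase, ran from 4.63 to 9.37 TPM. After median-of-ratios scaling the rho of Tmem123 was 0.67 and that of Sh3bgrl, 0.93 on TPM, was 0.58, so these 2 were upward on TPM only. At lower expression Cck, a peptide hormone gene, was in perfect order, with 0.412, 0.415, 0.709, 0.945, 1.70, 2.20, 2.26, 4.17 and 4.27 TPM. At the other end stood Ldhb, B3gnt7, a glycan-extending enzyme (16.3, 15.8, 17.9, 15.2, 10.5, 8.14, 7.61, 6.82 and 4.63 TPM, rho -0.95), and Dcxr (3.93 to 7.52 TPM, rho -0.95). Pim2, a kinase, ran from 44.8 to 2.99 TPM (rho -0.92).

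Centred within sex, 16 genes were upward and 24 downward on TPM, and 146 and 158 after median-of-ratios scaling. The medians of 12 of the 38 lists took the opposite sign on TPM. Among the 5 embryos that lacked Y transcripts, Slc4a1 ranged from 0.176 to 0.454 TPM, Myl2 from 1.17 to 7.56 TPM, Sox10 from 0.368 to 5.70, Pou5f1 from 17.3 to 89.4 and Nodal from 0.362 to 13.6. These 5 genes were picked from those past the threshold. Sex and the upper or lower part of the order coincide in these embryos, so the values cannot separate them. The part of sex in these values was not tested.

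The embryos with the most adult beta globin and the most decidual transcript, MYOX_MUT 1 and MYOX_MUT 2, were left out as a further added alternative. The remaining 7 embryos gave 223 upward and 326 downward genes. The heart contractile median was then 0.93, the neural crest median 0.89, the epiblast median -0.79 and the primitive streak and tail bud median -0.82. Leaving out each embryo in turn gave 177 to 536 upward and 94 to 366 downward genes. The upward count was highest and the downward count lowest without MYOX_MUT 4, which has the largest structural RNA share. Ordering by Hba-x in place of Hbb-y gave 239 upward but only 59 downward genes, with a heart contractile median of 0.73 and an epiblast median of -0.70.

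The position in the order was also entered into the comparison of genotypes, a label that the order did not use. With limma on log2(TPM + 1), 1 of 12560 genes differed between MYOX_MUT and MYOX_WT embryos at a Benjamini-Hochberg adjusted p under 0.05 (0.00796%), and it was Myo10 itself (-2.54, SE 0.18, adjusted p = 6.68e-05). With log2(TPM + 1) of Hbb-y as a covariate, 1 gene differed (0.00796%), again Myo10 (-2.52, SE 0.19, adjusted p = 8.66e-05). At an unadjusted p under 0.05, 43 genes were higher and 811 lower in mutants without the covariate, and 45 and 631 with it. The median difference over all genes was -0.16 on TPM and 0.01 after median-of-ratios scaling, so the excess of lower genes depends on the scale. None of the upward, downward or listed genes was called in either fit.

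The same measure was then taken in the 8 E9.5 embryos, which the order did not use. Their Hbb-y lay between 10863 and 19029 TPM, all above the E8.5 embryos and within a narrow range. In a limma fit of each gene's slope on Hbb-y, 1 of 13286 genes passed (0.00753%), mt-Atp8, a mitochondrial ATP synthase subunit (slope 1.38, SE 0.14, adjusted p = 0.0305). Its slope was positive under every alternative run, with an adjusted p by limma from 0.00928 to 0.817. The call was lost with sex as a covariate (0.284), a replicate block (0.817), no filter (0.147), Hba-x as anchor (0.0879), and without Disp1WT 1 (0.0551), Disp1CSINDEL 1 (0.170), Disp1CSINDEL 2 (0.140) or Disp1CSINDEL 4 (0.369). All 13 tested erythroid genes had a positive slope at E9.5 (median 0.58), against 27.1% of all ranked genes that were tested (3253 of 12010).

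For the other tissues these slopes cannot show whether the E8.5 order carried over to E9.5. Hbb-y spanned only 10863 to 19029 TPM there. Per unit of log2(TPM + 1) of Hbb-y, the median slope at E8.5 was 0.11 for upward and -0.11 for downward genes, a small change over that range. Of the upward genes 55 of 203 tested had a positive slope at E9.5 (27.1%), and of the downward genes 52 of 153 did (34.0%), both near the share over all genes. Among 14 heart contractile genes 4 slopes were positive (median -0.06), and among 11 neural crest genes 5 were (median -0.01). Of 8 epiblast genes 5 were positive (median 0.05). Disp1WT 3 and Disp1CSINDEL 1 were low in caudal genes, with Hoxc10, a tail-region gene, at 0.134 and 1.46 TPM against 40.8 to 54.6 TPM in the other 6. Without them no gene passed in the limma fit, in which 377 genes had a positive and 1247 a negative slope at an unadjusted p under 0.05.

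Levels at E9.5 were set beside the E8.5 order for the genes described. This comparison shares the E8.5 wild types with the order, and age cannot be told apart from the experiment, since structural RNAs took at most 0.0132% and histone genes at most 0.0240% of TPM in every E9.5 library. Over 13397 genes, limma called 9304 higher (69.4%) and 1364 lower (10.2%) in E9.5 than in E8.5 wild types on TPM, with a median difference of 0.62. After median-of-ratios scaling it called 4958 and 4735, with a median of 0.02. Differences below are on log2(TPM + 1) and should be read against that median shift.

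Of the upward genes, 182 of 209 tested were called higher and 8 lower at E9.5, and of the downward genes 80 of 171 were called higher and 55 lower, against 8386 higher and 1364 lower of 12394 ranked genes tested. After median-of-ratios scaling the median difference was 0.98 for upward, -0.27 for downward and -0.03 for all ranked genes. Genes whose difference with age had the direction they took along the order are given first. Myl2 was 6.34 ± 5.27 TPM (SD, n = 4) in E8.5 and 123 ± 17.8 TPM (SD, n = 4) in E9.5 wild types, a difference of 4.39 (SE 0.45, limma adjusted p = 4.31e-06) that was 3.79 after median-of-ratios scaling. Slc4a1 was 1.25 ± 1.88 and 102 ± 12.1 TPM (5.81, SE 0.38), and Col3a1 7.23 ± 4.07 and 171 ± 14.9 TPM (4.53, SE 0.30). Sox10 was 5.24 ± 5.87 and 20.9 ± 1.60 TPM, a smaller difference (2.34, SE 0.55, limma adjusted p = 0.00235). Pou5f1 was 34.9 ± 26.3 and 0.498 ± 0.169 TPM (-4.26, SE 0.45, limma adjusted p = 5.33e-06), and Wnt8a 16.8 ± 12.6 and 0.626 ± 0.0713 TPM (-3.12, SE 0.45). Among the E8.5 wild types the SD of these genes was large beside their mean.

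Some downward genes stood higher at E9.5 on both scales, against their direction within E8.5. Ldhb was 54.1 ± 19.2 TPM in E8.5 and 169 ± 20.8 TPM in E9.5 wild types (1.69, SE 0.21, and 1.01 after median-of-ratios scaling), although it ran from 85.3 to 17.9 TPM along the order. Fabp7, a lipid carrier of radial glia, was 6.46 ± 2.64 and 56.9 ± 11.8 TPM (3.00, SE 0.23, and 2.37), although its rho within E8.5 was -0.92 (13.3 to 3.60 TPM). Rtl8c, a retrotransposon-derived gene, was 13.8 ± 3.35 and 43.7 ± 2.73 TPM (1.62, SE 0.14, and 0.97). Aldh1a2 was 88.8 ± 37.0 and 88.5 ± 10.3 TPM, with no difference called (0.11, SE 0.29, limma adjusted p = 0.732) and -0.56 after median-of-ratios scaling.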

How the data were processed

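RNA from single whole embryos was sequenced from TruSeq libraries on a NovaSeq instrument, per the labels' protocols. The deposited table holds TPM for 41709 gene symbols, made by the authors on the genome build GRCm39 (mm39) per the submitters' processing notes. Which aligner, quantification tool and gene annotation were used is not given in the sources used here. Read depth cannot be read from TPM, so no counting interval is given.

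Unless another scale is named, values were taken as log2(TPM + 1), which understates fold changes of low genes. Spearman's rho was computed with pandas 2.3.3 and numpy 2.4.6 in Python 3.11.15. Slopes and group differences were fitted with limma 3.58.1 (R 4.3.3; mean-variance trend, Benjamini-Hochberg adjustment at 0.05), and Hbb-y was compared with an exact two-sided permutation test (scipy 1.17.1). Both were tested on simulated data. P-values measure the spread between single embryos, whose litters are not stated.

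The members and the 40 gene lists were chosen with earlier results of these data known. Genes named by rule are Hbb-y and Myo10, the 12 highest and 12 lowest rho at a mean of at least 5 TPM, each described list's first member and its 3 of largest rho in size, the 5 of smallest p per limma fit (not all printed) and the genes at the threshold. Others, among them Klf1, Alas2, Etv2, Ednrb, Erbb3, Foxd3, Hes5, Nes, Nanog, Dnmt3b, Lefty1, Cck, Msgn1, Hbb-bt, Col1a1, Stmn2 and Hoxc10, were chosen after their values were seen, as were the 3 promoters. Some genes that the rule names are not reported here. RefSeq promoters were matched by symbol for 156 of 212 upward and 131 of 184 downward genes. Alternatives were other scalings, filters, thresholds, anchors and covariates, a replicate block, and leaving out embryos. Whether replicate numbers pair the E8.5 embryos is not known. Correlations of deviations between same-numbered wild types and mutants were -0.05, 0.15, -0.29 and 0.46. These values cannot show whether same-numbered embryos shared a litter.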

Additional observations from a re-analysis of the deposited data

Results flagged for a closer look

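Of 132 sets of values compared within a genotype at E8.5, 7 had an embryo far from the others of its group by Dixon's criterion, where chance flags about 1 in 20 groups. All values are log2(TPM + 1). Sh3bgrl was 5.43 in MYOX_MUT 1 against 5.82 to 5.95 in the other mutants. Dcxr was 2.92 in MYOX_WT 3 against 2.80 to 2.82 in the other wild types. The mean of the endothelium list was 3.93 in MYOX_MUT 2 against 3.10 to 3.32 in the other mutants, and that of the glycolysis and hypoxia list was 7.30 in the same embryo against 6.96 to 7.0. In MYOX_WT 3 the mean of the somite and sclerotome list was 2.11 against 2.43 to 2.48 in the other wild types, and that of the retinoic acid list was 4.35 against 4.63 to 4.68. The mean of the sex-linked list was 2.97 in MYOX_WT 1, the only wild type with Y transcripts, against 0.69 to 0.97 in the others.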

How the results depend on the processing

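The counts of upward and downward genes depended on the setting. Beside 212 upward and 184 downward genes as reported, median-of-ratios scaling gave 596 and 608, TPM rescaled without globin, structural and mitochondrial RNA 568 and 372, no filter 395 and 335, a mean of at least 5 TPM 95 and 102, thresholds of 0.7 and 0.9 gave 415 and 455 and 60 and 33, centring within genotype 281 and 287, Pearson's r 117 upward and, with a pseudocount of 0.1, 116. Ordering by Hba-x gave 59 downward, by Hbb-bh1 55 downward, and by the primitive erythroid mean 123 and 19. Without the 2 embryos farthest from the median of Hbb-y they were 602 and 58. Of the settings added after seeing the data, centring within sex gave 16 and 24, leaving out MYOX_MUT 1 and MYOX_MUT 2 gave 326 downward, and doing so with median-of-ratios scaling 749 and 728. Leaving out each embryo gave 177 to 536 upward and 94 to 366 downward; counts moved over 1.5 times without MYOX_MUT 4 (536 and 94) and, downward, without MYOX_WT 1 (366), MYOX_WT 3 (345) or MYOX_MUT 1 (324). The cause was not tested.

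Of 38 list medians under all settings, 146 of 985 values, from 27 lists, had the opposite sign to the reported median; 12 of these, from 3 lists, were of medians of at least 0.5 in size. Presomitic mesoderm turned to 0.20 centred within sex and 0.28 with median-of-ratios scaling too, where primitive streak and tail bud turned to 0.033. The sex-linked list, which mixes Xist with Y genes, turned to -0.68 without the 2 farthest embryos, and ranged from -0.79 to 0.83 with single embryos left out, being negative without MYOX_WT 1, MYOX_MUT 2, MYOX_MUT 3 or MYOX_MUT 4 (-0.71); it was -0.27 and -0.017 centred within sex (TPM and median-of-ratios), and -0.79 and -0.75 without MYOX_MUT 1 and MYOX_MUT 2. Of the 24 genes of highest or lowest rho, none changed sign.

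In the limma fits, the E9.5 slope called 13 genes higher after median-of-ratios scaling, 13 higher and 15 lower with Hba-x as anchor, and 0 with no filter, a replicate block, sex as covariate or without the 2 embryos low in caudal genes; single embryos left out gave 0 to 2 higher (0 without Disp1WT 1, Disp1CSINDEL 1, 2 or 4) and 0 to 1 lower. Genotype called 2 genes lower with no filter, with and without Hbb-y as covariate. A replicate block gave 1 higher and 45 lower, and 39 and 664 with Hbb-y as covariate. Its numbers are not known to pair these embryos. The difference in Hbb-y over the 4 same-numbered pairs was 1.63 (exact permutation p = 0.625). Leaving out embryos gave 0 to 1 higher and 1 to 2 lower, and 0 to 1 and 1 to 3 with Hbb-y; all the larger counts were without MYOX_WT 4. The age comparison called 4958 higher and 4735 lower after median-of-ratios scaling, and 2118 lower with no filter. The difference in Hbb-y by genotype ranged from 0.15 to 2.11 with single embryos left out.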

Other observations

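Among genes outside the groups described above, Tbx4, a factor of the allantois and hind limb, stood in the Hbb-y order at 0.0948, 24.7, 20.8, 33.8, 1.88, 7.69, 2.01, 29.9 and 2.49 TPM, with a rho of 0.08. MYOX_MUT 1, the embryo lowest in Hbb-y, thus held almost none of it, and the other values did not follow the order. Of 80 ranked ribosomal protein genes 3 were downward and none upward, against 1.47% and 1.69% of all genes. Their median rho was -0.46 on TPM and 0.03 after median-of-ratios scaling. Cholesterol synthesis genes had no member of 18 past the threshold (median 0.14), whereas at E9.5 none of the 18 had a positive slope on Hbb-y (median -0.76), and none of these slopes passed in the limma fit, by which 299 of all genes had a positive and 1740 a negative slope at an unadjusted p under 0.05.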
